A study of Mus musculus with 3 samples.

Results

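The genes described here are 45 members of the Wnt signalling system of the mouse, namely 16 Wnt ligands, 15 receptors and co-receptors, 6 R-spondins and their Lgr receptors, and 8 genes that transmit the signal or are induced by it. The rule names the genes and uses no measured value, although results of these data were known when it was written. Of the 45, 44 had at least 1 named probe, out of 16998 genes with a named probe in all, and Fzd9 matched none. The RNA was isolated from primordia of 3 gut organs (esophagus, stomach, intestine) of ICR mouse embryos at E11.5, with 1 array for each organ. ICR is an outbred stock, and no allele or treatment distinguished the organs. The labels do not state how many embryos or which sexes entered a sample, and their extraction text speaks of stomach for every sample, so the organ was taken from the title and tissue label. With 1 array per organ there was no replicate, no difference below has a replicate check, and no test was made.

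Wnt proteins are secreted lipid-modified ligands that bind Frizzled receptors together with the co-receptors Lrp5 and Lrp6. In the canonical branch this protects β-catenin, the product of Ctnnb1, from destruction, and β-catenin enters the nucleus and acts with Tcf and Lef factors on target genes. R-spondins, bound by Lgr receptors, raise the number of Frizzled receptors at the cell surface, while Ror and Ryk receptors serve other branches of the pathway. In the embryonic gut, Wnt signals are known for their part in the patterning of the tube along its length and in the exchange between epithelium and mesenchyme.

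Levels are given as log2 of the processed Cy3 signal minus the log2 of the array's 75th percentile, so a level of 0 equals that percentile. A level compares organs for one gene and not genes with each other, because each probe has its own response. The 75th percentile itself was 393 signal units in the esophagus, 335 in the stomach and 1024 in the intestine, and between 67.9% and 74.0% of spots were well above background. No spot was saturated. As sums, markers of the labelled organs followed the labels. Summed over 6 esophagus and pharynx markers, in multiples of the 75th percentile, the esophagus array held 18.1, the stomach array 1.99 and the intestine array 0.597. That of 5 stomach markers was 27.4, 102 and 5.40 in the same order, and that of 6 intestine markers was 0.125, 0.865 and 16.6. Of the intestine markers, Cdx1 went against the label. It was above background in stomach alone, at −5.575 beside a lowest measured level of −5.84, with intestine at least 2.63-fold below stomach. Markers listed for other organs also differed. The sum over 6 heart markers was 121, 2.51 and 3.75, with all 6 measured on every array. In intestine, 5 of these 6 lay below stomach and 1, Actc1, lay 3.46-fold above it. The sum over 5 trachea and lung markers was 13.4, 0.554 and 0.475, and Nkx2-1, Sftpc and Tbx4 were not above background in stomach or intestine. The sum over 5 liver markers was 9.36, 3.06 and 58.2. In such bulk samples, fewer cells of a type and less RNA per cell cannot be told apart.

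Of the 44 members with a probe, 36 were well above background in all 3 organs, 3 in some of them (Wnt9b, Wnt10a and Wnt16) and 5 in none (Wnt3, Wnt3a, Wnt7a, Wnt8b and Wnt10b). The esophagus array measured 37 of them, the stomach array 39 and the intestine array 38. Among the 39 members measured anywhere, 20 had their highest level in the esophagus, 10 in the stomach and 9 in the intestine. Over all measured genes, 27.6% were highest in the esophagus, 31.7% in the stomach and 40.7% in the intestine. Every level is drawn in the plot of members by organ.

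**Figure D1:**
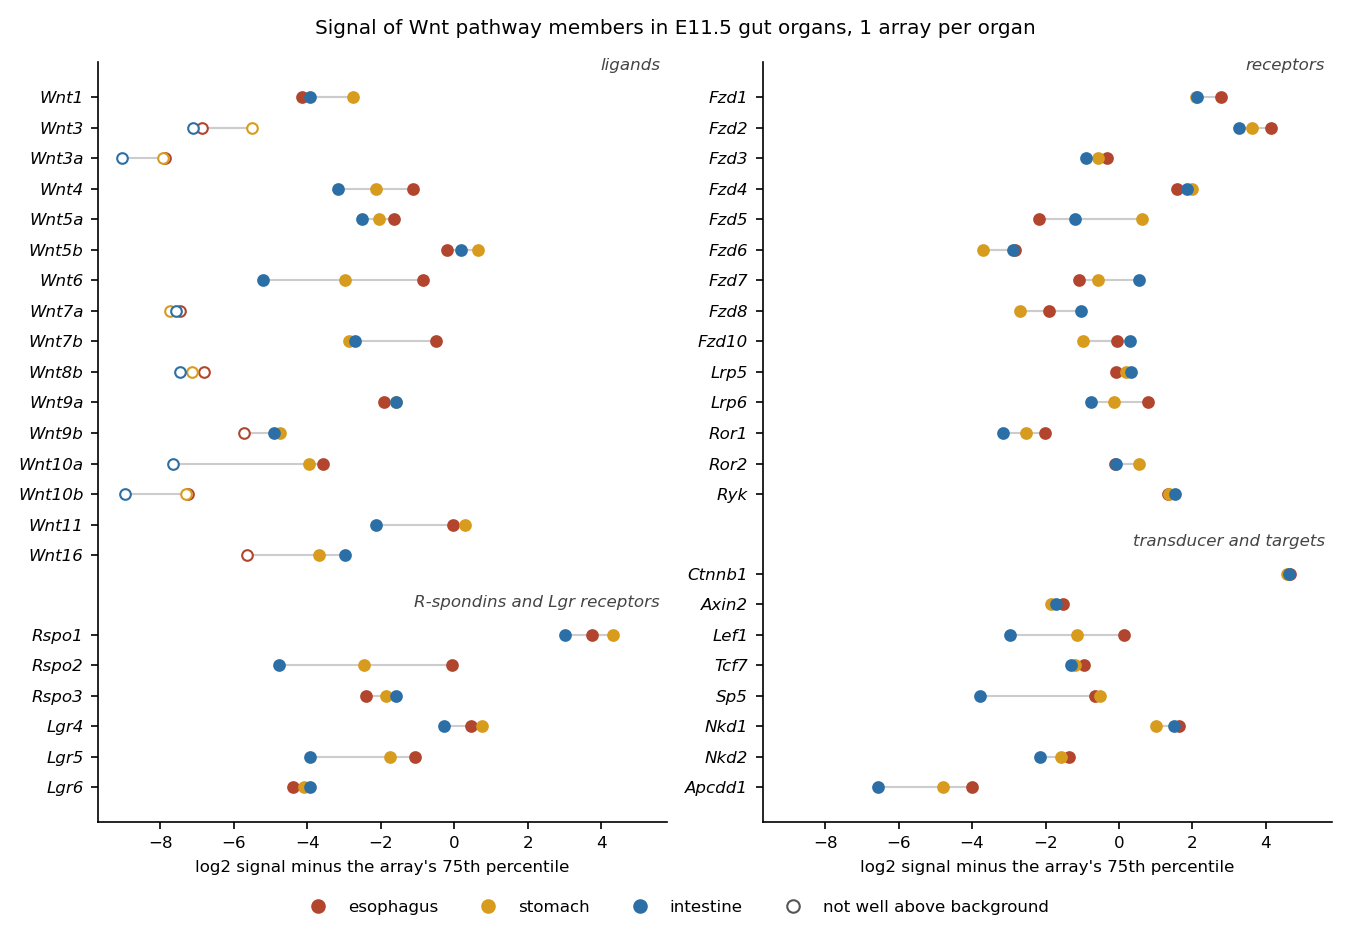
Level of each member (rows, by role) in esophagus, stomach and intestine, as log2 signal minus the array's 75th percentile, 1 point per organ; open points were not well above background. Rspo2, Wnt6 and Lef1 run from esophagus down to intestine, and Ctnnb1, Ryk and Axin2 lie close together.

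A gene entered a comparison when at least 1 of its 2 arrays was well above background, and a difference of at least 2-fold was counted. Where only 1 array measured the gene, the dim side was set to no less than the lowest measured signal of its array, and the difference is a lower bound, written "at least". All 3 comparisons draw on the same 3 arrays, so they are not independent of each other. Between stomach and esophagus, 3 of the 39 members stood at least 2-fold above in stomach (4.08% of 13740 genes were) and 4 were at least 2-fold lower (5.76% of genes). The median difference of the members was −0.24 log2 units, beside 0.14 over all genes.

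Between intestine and esophagus, 2 members stood at least 2-fold above in intestine (8.32% of 14462 genes) and 12 at least 2-fold lower (11.6% of genes). As a share, 30.8% of the members were lower. The median of the members was −0.36, beside 0.13 over all genes. Between intestine and stomach, 3 members stood at least 2-fold above in intestine (4.78% of 14384 genes) and 13 were lower (7.16% of genes), which is 33.3% of the members. Here the median of the members was −0.35, beside −0.02 over all genes. The members were therefore more often lower in intestine than all genes were, in counts from 1 array per organ and with no test.

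These counts hold on the 75th-percentile scale, and the scale moves them. Of all genes at least 2-fold apart between intestine and esophagus, 41.8% were higher in intestine on this scale, 57.1% after quantile normalization, 79.3% after median centring and 92.0% when 8 spike-in probes set the scale. The members higher and lower in that comparison numbered 6 and 12 after quantile normalization, 6 and 11 after median centring, and 14 and 10 on the spike-in scale. Over all genes with a difference these counts were 1817 and 1364 of 14206, 3715 and 971 of 14211, and 7143 and 617 of 14420. Between intestine and stomach, the share of genes higher was 40.0% on the 75th-percentile scale, and 54.4%, 68.3% and 95.8% on the same 3 scales. The members higher and lower numbered 4 and 11, 4 and 9, and 12 and 6 on those 3 scales. Over all genes the counts were 858 and 718 of 13994, 1256 and 584 of 14001, and 5079 and 220 of 14347. Between stomach and esophagus the share was 41.5% on the 75th-percentile scale, 54.1% after quantile normalization and 61.9% after median centring. Scales that shift every gene of an array alike leave the gap between the member median and the median of all genes nearly fixed by construction. Under the other 5 alternatives (quantile normalization, normexp, both filters and the mean over probes) the member median lay below that of all genes, by 0.42 to 0.58 log2 units between intestine and esophagus, by 0.11 to 0.43 between intestine and stomach and by 0.18 to 0.40 between stomach and esophagus.

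**Figure D2:**
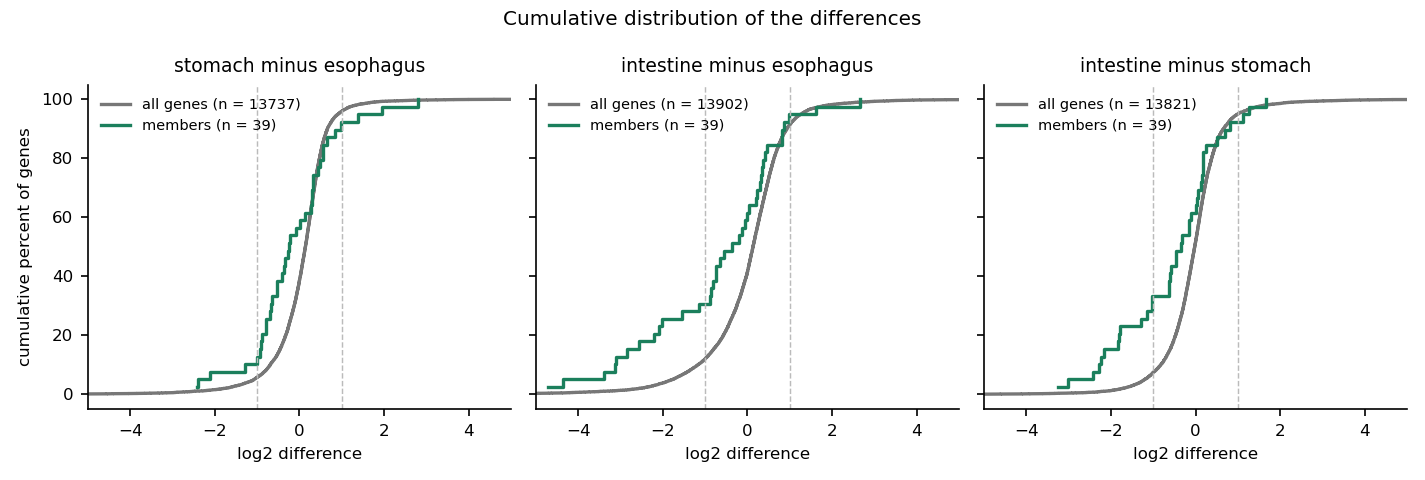
Cumulative percent of genes (vertical) against the log2 difference (horizontal) for the 39 members and for all genes with a difference, in the 3 comparisons; dashed lines mark 2-fold. Toward the left of both intestine panels the member curve lies above the curve of all genes, and toward the right the curves meet.

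Rspo2 and Wnt6 differed most between intestine and esophagus among the members measured in both. Rspo2 encodes a secreted R-spondin that strengthens Wnt signals in many embryonic mesenchymes. Its level was −0.05 in the esophagus, −2.47 in the stomach and −4.76 in the intestine, from signals of 379, 60.5 and 37.8 units. Stomach was 5.35-fold below esophagus and intestine 26.2-fold below it, and intestine was 4.89-fold below stomach. Wnt6, a ligand made by many embryonic epithelia, had levels of −0.85, −2.97 and −5.21 in the same order. Against esophagus, stomach lay 4.36-fold and intestine 20.6-fold lower, and intestine lay 4.73-fold below stomach. Both genes thus stepped down from esophagus to stomach to intestine. Each step was at least 2-fold under each of the 8 alternative settings. The heart, trachea and lung sums given above also lay highest in esophagus, and their part in these differences was not tested.

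Among the other ligands, Wnt7b, known from the epithelium of the developing airways, was high in esophagus alone. Its level was −0.49 there, −2.87 in stomach and −2.70 in intestine. The fold difference was 5.23 for stomach and 4.65 for intestine, both below esophagus, and the stomach and intestine values lay within 1.13-fold of each other. The trachea and lung markers were also highest in esophagus, where 5 of 5 were measured, beside 2 in stomach and 1 in intestine. The part of airway tissue in the Wnt7b signal was not tested.

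Wnt4, Wnt10a and Wnt11 were lower in intestine. Wnt11, a ligand of the branch that works without β-catenin in many tissues, had levels of −0.03 in the esophagus, 0.29 in the stomach and −2.14 in the intestine. Intestine lay 4.29-fold below esophagus and 5.36-fold below stomach. Esophagus and stomach were 1.25-fold apart. Wnt10a, a canonical ligand, was measured in esophagus (−3.58) and stomach (−3.95) and was not well above background in intestine, so intestine was at least 10.5-fold below esophagus and at least 8.13-fold below stomach. Wnt10a follows Wnt6 on mouse chromosome 1, but the pair differed in stomach, where Wnt10a was 1.29-fold below esophagus and Wnt6 4.36-fold. For Wnt4, which acts in the kidney and the female reproductive tract among other organs, the level was −1.13 in the esophagus, −2.12 in the stomach and −3.16 in the intestine. Intestine thus lay 4.08-fold below esophagus. The differences of 1.99-fold between stomach and esophagus and 2.05-fold between intestine and stomach lay on either side of the 2-fold limit.

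Wnt16 ran the other way. Its esophagus signal of 7.88 units was not well above background, and levels were −3.68 in stomach and −2.98 in intestine. Stomach was at least 3.88-fold and intestine at least 6.33-fold above esophagus. After normexp background correction, which adds a constant to every signal, the differences were 0.51 and 0.22 log2 units. Wnt1 in stomach stood 2.62-fold above esophagus, but its probe was printed in 10 spots whose levels ran from −6.76 to −3.10 in esophagus and from −3.66 to −2.35 in stomach, so the spots of the 2 arrays overlapped. In intestine the Wnt1 level was −3.92. Wnt1 is best known from the midbrain and dorsal neural tube, and the 6 neural tube markers had no common order. Nkx6-1 made up most of their summed level (6.01, 2.17 and 0.336 from esophagus to intestine), with levels of 2.53, 1.06 and −1.82. Pax3 and Dbx1 were above background in esophagus alone and Olig2 in stomach alone. Sox1 lay at −5.18, −4.63 and −5.12, and Pax6 was above background in intestine alone.

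Of the remaining measured ligands, Wnt5a, Wnt5b and Wnt9a stayed within 2-fold, and Wnt9b gave bounds. Wnt5a, a ligand of gut mesenchyme that drives elongation of the tube, had levels of −1.65, −2.05 and −2.51 from esophagus to intestine, the largest difference being 1.82-fold. Wnt5b, its closest relative, was at −0.19, 0.65 and 0.19 by its brightest probe. The log2 difference of its other probe was −0.43 for intestine minus esophagus. Wnt9a was at −1.90, −1.59 and −1.57. Across the alternatives, intestine minus esophagus ran up to 1.26 log2 units for Wnt5b and 1.22 for Wnt9a. Stomach minus esophagus ran up to 1.04 for Wnt5b. Wnt9b was dim in esophagus and at −4.75 and −4.91 in stomach and intestine, so stomach was at least 1.97-fold and intestine at least 1.76-fold above esophagus. These bounds ran up to 1.19 and 1.70 log2 units across the alternatives. Of the 11 ligands that entered, 2 were at least 2-fold higher and 2 lower in stomach than in esophagus (4.08% and 5.76% of all genes). In intestine, 1 was higher and 5 lower than in esophagus (8.32% and 11.6% of all genes), and 0 were higher and 5 lower than in stomach (4.78% and 7.16%).

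All 14 receptors with a probe were above background in all organs, and 13 of 14 lay within 2-fold between stomach and esophagus, 11 between intestine and esophagus and 10 between intestine and stomach. By brightest probes, these shares of 92.9%, 78.6% and 71.4% stand beside 90.2%, 79.3% and 87.6% of all genes with a difference. The receptors were near all genes in the first 2 comparisons. The third share counts Fzd7 and Fzd10 as apart, although their other probes gave −0.52 and 0.24 log2 units for intestine minus stomach. It therefore depends on the probe chosen. The exception between stomach and esophagus was Fzd5, a Frizzled needed in endodermal tissues of the early embryo. The Fzd5 level was −2.17 in the esophagus, 0.63 in the stomach and −1.18 in the intestine. Stomach was 6.97-fold above esophagus and 3.52-fold above intestine, and intestine was 1.98-fold above esophagus. A further Fzd5 probe gave the same order, with log2 differences of 1.94 for stomach minus esophagus and −1.34 for intestine minus stomach. Across the 8 alternatives the stomach minus esophagus difference ran from 2.10 to 3.01. The sum over 8 gut epithelium markers was 97.8 in stomach, beside 38.9 in esophagus and 48.2 in intestine, but the markers differed. The keratins Krt8 and Krt18 were the 2 that stood at least 2-fold above esophagus in stomach, at 1.54 and 1.70 log2 units, while Cdh1, Foxa2 and Shh lay at −0.17, −0.36 and −0.53. The part of epithelial content in the Fzd5 difference was not tested.

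By their brightest probes, Fzd7, Fzd8 and Fzd10 in intestine stood 2-fold or more above stomach. Fzd8 had levels of −1.90 in the esophagus, −2.70 in the stomach and −1.04 in the intestine, a 3.17-fold difference between intestine and stomach from 1 probe. By its brightest probe, Fzd7 in intestine stood 3.06-fold above esophagus, with levels of −1.08, −0.58 and 0.53. Its other probe ran in the opposite direction, at −0.74 log2 units for intestine minus esophagus and −0.52 for intestine minus stomach, so the direction of Fzd7 is not settled. Fzd10 in intestine stood 2.39-fold above stomach by the brightest probe and 0.24 log2 units above by the other.

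For the co-receptor Lrp6, intestine lay 2.92-fold below esophagus, with levels of 0.79, −0.12 and −0.75 from esophagus to intestine. Its partner Lrp5 lay at −0.09, 0.18 and 0.34. On the spike-in scale the Lrp6 difference was −0.66 log2 units, short of 2-fold. Ror1, a receptor tyrosine kinase that binds Wnt5a, lay 2.20-fold below esophagus in intestine, at −2.01, −2.53 and −3.15, and stayed past 2-fold under 5 of the 8 alternatives. Its relative Ror2 was at −0.11, 0.55 and −0.07 by the brightest probe, while the other Ror2 probe was 1.51 log2 units higher in intestine than in esophagus. Ryk lay at 1.33, 1.35 and 1.54 by its brightest probe, and its other probe was 0.56 log2 units higher in intestine than in esophagus. Fzd1, Fzd2, Fzd3, Fzd4 and Fzd6 lay within 2-fold in all comparisons by their brightest probes, although a dimmer Fzd3 probe was 1.51 log2 units lower in intestine than in esophagus.

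**Figure D3:**
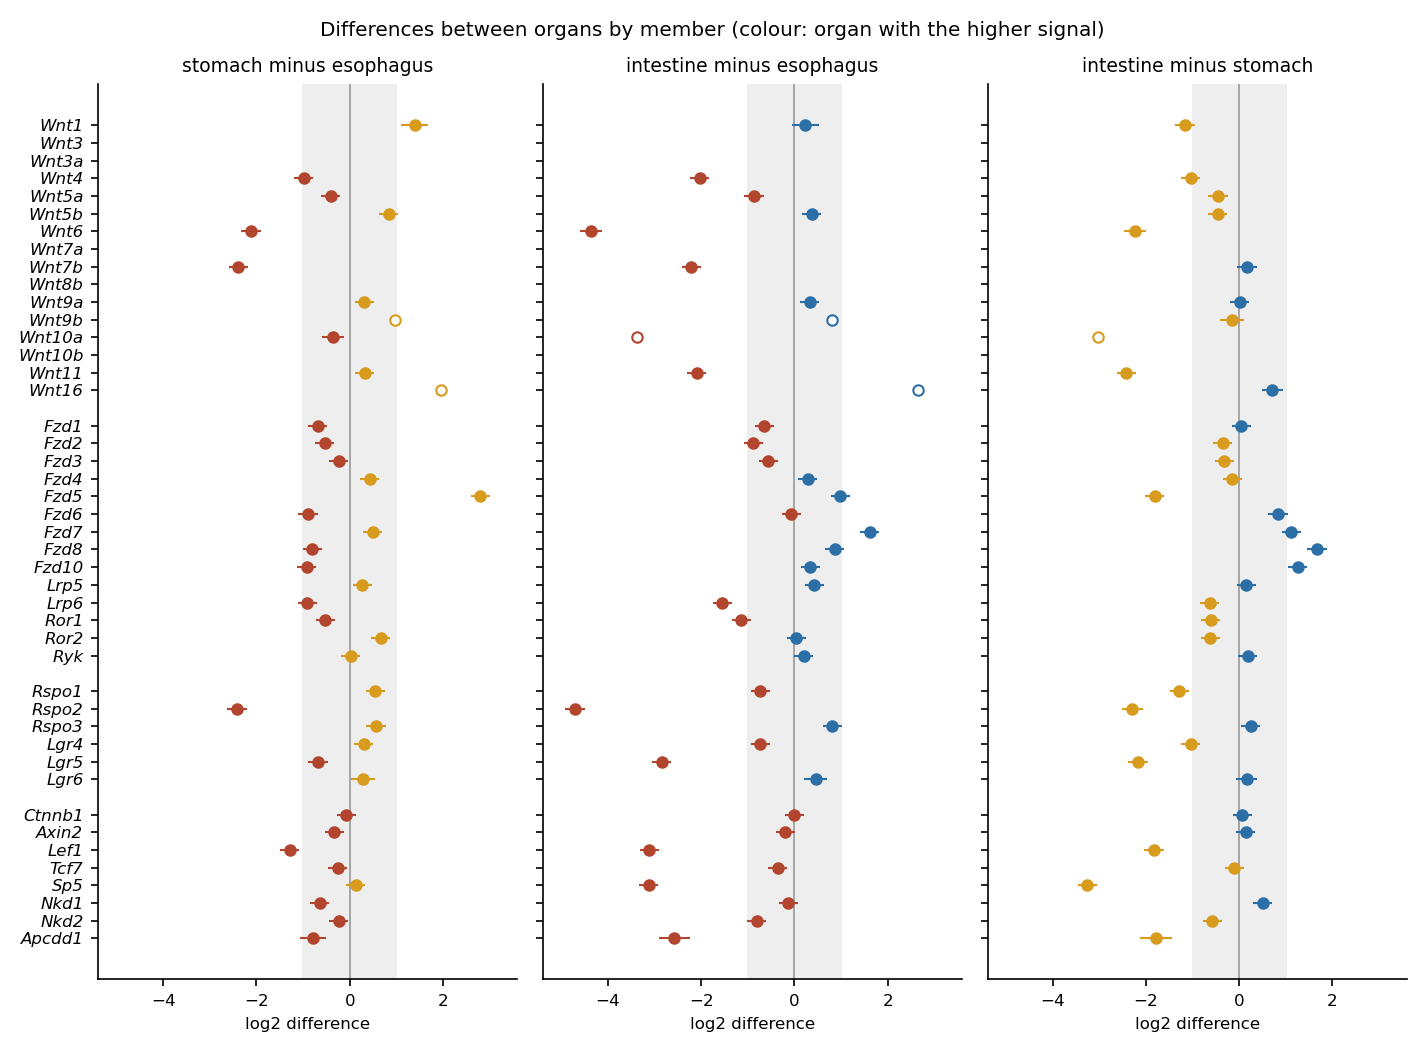
Log2 difference of each measured member (rows, grouped from the top as ligands, receptors, R-spondins with Lgr receptors, and transducer with targets) in the 3 comparisons, 1 array per organ. The grey band marks less than 2-fold, open points are bounds, and bars are the scanner software's own error of the signals, about 0.20 log2 units for bright probes, which holds no biological spread.

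The R-spondins did not move as a group. Rspo1 had levels of 3.76 in the esophagus, 4.31 in the stomach and 3.02 in the intestine, so that intestine lay 2.44-fold below stomach. Rspo3, a secreted R-spondin known from mesenchyme and endothelium, went from −2.41 to −1.85 to −1.60, opposite in order to Rspo2, and no Rspo3 difference reached 2-fold.

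Lgr5, an R-spondin receptor known as a marker of intestinal stem cells in the adult, was low in intestine, 7.22-fold below esophagus and 4.5-fold below stomach. Its levels were −1.06 in the esophagus, −1.74 in the stomach and −3.92 in the intestine. Both intestine differences stayed past 2-fold under the 8 alternatives. Lgr4, the more widely expressed receptor, lay 2.06-fold below stomach in intestine by its brightest probe. Its 3 probes gave log2 differences of −0.74, 1.20 and −1.72 for intestine minus esophagus, so no direction can be given. Lgr6 lay at −4.39, −4.10 and −3.93. Of the 6 R-spondins and Lgr receptors, 1 was at least 2-fold lower in stomach than in esophagus. In intestine, 2 were lower than in esophagus and 4 lower than in stomach. These counts stand beside 5.76%, 11.6% and 7.16% of all genes, and 0 were at least 2-fold higher in any comparison. Of the 4 lower than in stomach, Rspo2 and Lgr5 stayed past 2-fold under all 8 alternatives, Rspo1 under 6 and Lgr4 under 4. The Lgr4 probes gave −1.04, 0.35 and −1.08 log2 units for intestine minus stomach.

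The transducer and targets shared a sign more than a size. By their brightest probes, 8 of 8 were below esophagus in intestine and 7 of 8 in stomach, with differences from near 0 to −3.13 log2 units in intestine. Over all genes with a difference, 5770 of 13902 were below esophagus in intestine and 5276 of 13737 in stomach. The sign in intestine turned for Ctnnb1, Axin2, Tcf7 and Nkd1 after median centring, and for these and Nkd2 on the spike-in scale. It also turned for Axin2 after quantile normalization and for Ctnnb1 under normexp and the mean over probes. In stomach it turned for Ctnnb1 after median centring and for Nkd2 with the mean over probes. Lef1, a nuclear partner of β-catenin and itself a target, had levels of 0.14 in the esophagus, −1.15 in the stomach and −2.98 in the intestine. Against esophagus, stomach lay 2.45-fold and intestine 8.67-fold lower, and intestine lay 3.54-fold below stomach. Tcf7, the related factor, lay at −0.95, −1.20 and −1.31. Sp5, a zinc-finger factor induced by canonical signals in many embryonic tissues, was nearly level between esophagus (−0.65) and stomach (−0.52), at 1.10-fold, and stood at −3.78 in intestine. Intestine was 8.74-fold below esophagus and 9.58-fold below stomach. Apcdd1, a membrane inhibitor of Wnt signals and a target in several tissues, was at −3.99, −4.78 and −6.57. Its signals of 24.7, 12.2 and 10.8 units stood close to the lowest measured signals of 7.03, 5.85 and 8.17, and intestine was 5.96-fold below esophagus.

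Axin2, widely used as a readout of canonical signalling, was close to even. Its level was −1.52 in the esophagus, −1.85 in the stomach and −1.71 in the intestine, and the largest difference was 1.26-fold. Nkd1, a feedback inhibitor, lay at 1.64 in esophagus and 1.51 in intestine, and stomach lay lowest, 1.56-fold below esophagus. Nkd2 lay at −1.35, −1.59 and −2.16 by its brightest probe, and its other probe was 0.56 log2 units higher in stomach than in esophagus. Ctnnb1 was at 4.64, 4.57 and 4.64 by its brightest probe. A further Ctnnb1 probe, printed in 10 spots with an SD among spots of at most 0.066 log2 units, was 0.83 log2 units higher in intestine than in esophagus. For comparison, the median SD between probes of a gene was 0.46 log2 units for intestine minus esophagus over 4698 genes, 0.31 for intestine minus stomach and 0.25 for stomach minus esophagus. Of the 8 genes, 1 was lower by 2-fold or more in stomach than in esophagus, 3 in intestine than in esophagus and 3 in intestine than in stomach, beside the same shares of all genes as above. None of the 8 was higher by that much in these comparisons.

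**Figure D4:**
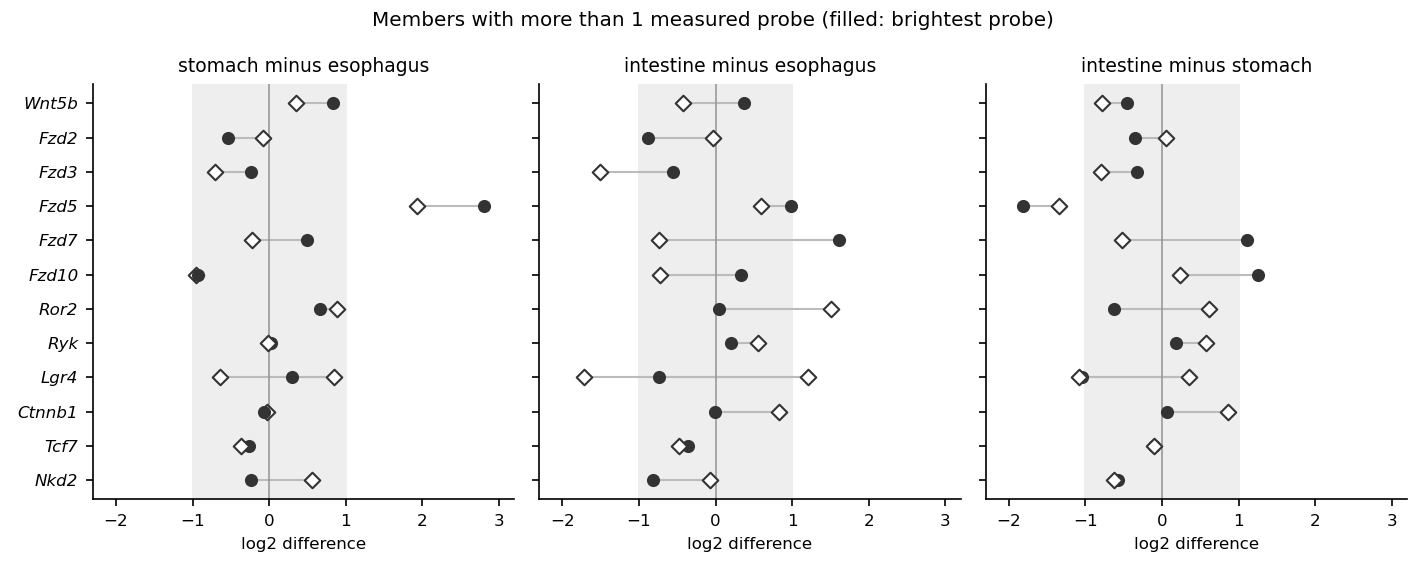
Log2 difference of each probe for the 12 members with more than 1 measured probe, in the 3 comparisons; filled circles are the brightest probe used for the gene, open diamonds are the others, and the grey band marks less than 2-fold. The Fzd5 probes lie together on the stomach side, and the Fzd7 and Lgr4 probes lie on both sides of 0.

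The stretches upstream of Sp5 and Wnt11 are shown because both genes had similar levels in esophagus and stomach and a low level in intestine, and Axin2 is shown beside them as the target that stayed even. These genes were picked after their values were seen. Each line is the 250 bases before a transcription start, 5′ to 3′ on the strand of the gene, from RefSeq on GRCm38.p6. Capitals mark a match to the Tcf and Lef motif CTTTGAT or CTTTGAA on either strand.
Sp5, chr2:70474673-70474922, plus strand: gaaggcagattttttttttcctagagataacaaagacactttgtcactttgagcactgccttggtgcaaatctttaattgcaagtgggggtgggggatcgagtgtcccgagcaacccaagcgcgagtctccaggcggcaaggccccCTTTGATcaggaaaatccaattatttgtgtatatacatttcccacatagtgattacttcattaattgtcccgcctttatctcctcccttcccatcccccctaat
Wnt11, chr7:98834862-98835111, plus strand: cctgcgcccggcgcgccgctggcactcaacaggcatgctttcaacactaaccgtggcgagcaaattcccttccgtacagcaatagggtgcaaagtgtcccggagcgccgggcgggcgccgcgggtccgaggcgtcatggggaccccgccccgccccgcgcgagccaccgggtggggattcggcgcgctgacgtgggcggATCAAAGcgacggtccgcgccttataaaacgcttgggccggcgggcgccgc
Axin2, chr11:108920099-108920348, plus strand: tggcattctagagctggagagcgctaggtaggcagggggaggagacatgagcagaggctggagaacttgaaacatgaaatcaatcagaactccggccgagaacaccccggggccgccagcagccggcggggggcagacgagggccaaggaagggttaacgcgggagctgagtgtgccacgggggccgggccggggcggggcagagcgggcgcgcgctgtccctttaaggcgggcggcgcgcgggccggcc
The first base of the match lies at −104 from the Sp5 start and at −51 from the Wnt11 start, where it is read on the opposite strand. Wnt11 has a further start in the table, whose window held no match. No match stands in the Axin2 window. Of the 32 members with a window in the table, 3 held a match in at least 1 window, the third being Wnt5b. Per window that is 3 of 40, beside 7.48% of 32851 windows over all genes. A match was thus about as common among the members as elsewhere, and it is a description of letters, not a site. Wnt5b, which has a match, lay within 2-fold in all comparisons by its brightest probe. Whether a match goes with a low level in intestine was not tested.

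Other genes of the pathway were taken from lists chosen by role. Of 65 such genes 63 had a named probe. In stomach against esophagus, 2 were at least 2-fold higher and 10 lower of 59 that entered, which is 3.39% and 16.9% beside 4.08% and 5.76% of all genes. In intestine, 4 were higher and 16 lower than in esophagus of 60, which is 6.67% and 26.7% beside 8.32% and 11.6% of all genes. Against stomach, 2 were higher and 7 lower, which is 3.33% and 11.7% beside 4.78% and 7.16%. Of 12 secreted antagonists and their receptors, 6 were at least 2-fold lower in stomach than in esophagus, and in intestine, 5 were lower and 2 higher than in esophagus. Sostdc1, which binds Lrp co-receptors, lay 30.6-fold below esophagus in intestine, at 2.10, −0.51 and −2.84 from esophagus to intestine. Sfrp2, which binds Wnt proteins, was 8.58-fold lower, and Kremen2, a receptor for Dkk proteins, 11.6-fold lower. Dkk2 in intestine stood 9.97-fold above esophagus and 8.81-fold above stomach, at −1.72, −1.55 and 1.59. Of the 13 genes of the cytoplasm and the destruction complex, all were within 2-fold between stomach and esophagus and 11 between intestine and esophagus. These shares of 100% and 84.6% stand beside 90.2% and 79.3% of all genes with a difference. The ligand Wnt2, known from lung mesenchyme, had levels of 1.71, −2.38 and −4.78, which is 17.0-fold lower in stomach and 89.8-fold lower in intestine than in esophagus. The summed trachea and lung level given above was also highest in esophagus, and its part in the Wnt2 difference was not tested.

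Across settings, 10 of the 12 members lower in intestine than in esophagus stayed at least 2-fold lower wherever a value could be had, namely Wnt4, Wnt6, Wnt7b, Wnt10a, Wnt11, Rspo2, Lgr5, Lef1, Sp5 and Apcdd1. Lrp6 and Ror1 did not. Of the 13 lower than in stomach, 6 stayed so: Wnt6, Wnt10a, Wnt11, Rspo2, Lgr5 and Sp5. All 4 members lower in stomach than in esophagus stayed so, and of the 3 higher, Fzd5 did. Neither member higher in intestine than in esophagus, and none of the 3 higher than in stomach, stayed past 2-fold in every setting.

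**Figure D5:**
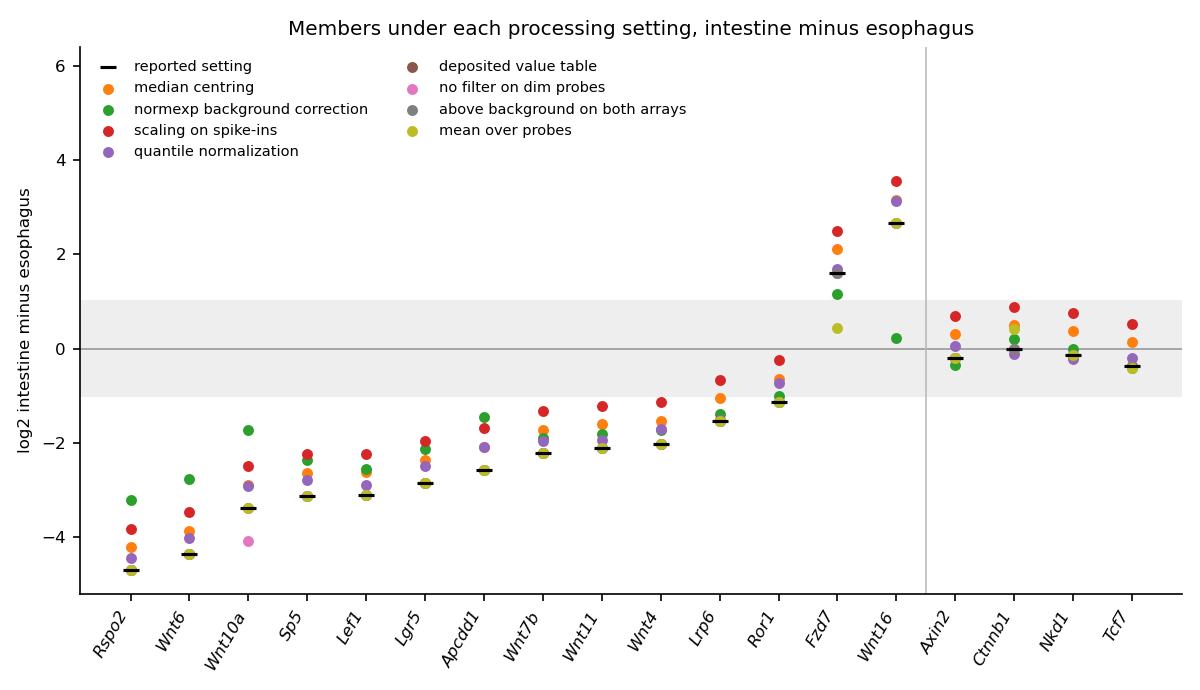
Log2 intestine minus esophagus (vertical) for the 14 members at least 2-fold apart in the reported setting (left of the line) and for Axin2, Ctnnb1, Nkd1 and Tcf7 (right of it), 1 point per processing setting, with the reported value as a bar. Rspo2 and Wnt6 stay below the grey band, which marks less than 2-fold, in every setting, while Wnt16 enters it under normexp.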

How the data were processed

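RNA from E11.5 mouse esophagus, stomach and intestine was labelled with Cy3 and read on 1-colour Agilent arrays, 1 per organ. Per the file headers, the authors read the arrays with Agilent Feature Extraction 10.5.1.1, and the processed signal is an intensity after background subtraction and detrending, not scaled between arrays. The deposited value table holds log2 values that equal the scanner signal over the array's 75th percentile, up to 1 constant per array, for at least 99.8% of probes within 0.01, with column medians of −2.96, −3.16 and −3.46. All arrays lay on 1 slide, so place on the slide and organ cannot be told apart.

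Outlier spots were removed (70 to 111 per array), signals were scaled to the 75th percentile of spots that were not controls, and spots of a probe were averaged. Probes were named by matching accessions to RefSeq (GRCm38.p6), which named 24342 of 41112 probes. A gene was represented by its brightest probe. Error bars use the deposited error intensity of each spot, per the file headers. With 1 array per organ, no p-value was computed, and precision is limited by the number of arrays. Alternatives were median centring, quantile normalization, normexp (limma 3.58.1, offset 50) on the deposited spot and background intensity, the deposited table, 2 filters and the mean over probes, and, chosen after seeing the data, spike-in scaling. Every member could be named. Of the other pathway genes, the 3 with the largest difference in each comparison and those at least 4-fold apart could be. The members and lists were chosen with earlier results of these data known. The comparison code was tested on simulated data. Python 3.11.15 and R 4.3.3 were used.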

Additional observations from a re-analysis of the deposited data

How the results depend on the processing

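No paired analysis was possible because each organ had 1 array, and for the same reason no replicate could be left out. The median difference of the members for intestine minus esophagus was −0.36 log2 units as reported, 0.13 after median centring and 0.53 on the spike-in scale, and for intestine minus stomach −0.35 and 0.52 on the spike-in scale. The median over all genes moved along with the scale, from 0.13 to 0.61 and 0.99 for intestine minus esophagus. The members that stood 2-fold or more above esophagus in intestine numbered 2 as reported, 6 after median centring or quantile normalization, 14 on the spike-in scale, and 1 under normexp, under the filter on both arrays and with the mean over probes. Those higher in intestine than in stomach numbered 3, 12 on the spike-in scale, and 1 under normexp or the mean over probes, and those higher in stomach than in esophagus 3, 5 after median centring and 1 under normexp. Members lower in intestine than in stomach numbered 13, and 6 on the spike-in scale. Under normexp, 26.9% of all genes 2-fold apart were higher in intestine than in esophagus and 13.4% than in stomach. Its offset of 50 units is a larger share of the signal on the dimmer arrays by construction. Normexp also started from the spot and background intensity in place of the processed signal. The part of the offset in the normexp shift, and the cause of the other shifts, were not tested. Members with signals near background, Apcdd1, Wnt9b, Wnt16, Wnt10a and Lgr6 among them, are the least precise.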
